A study of Mus musculus with 9 samples.

Results

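The nuclear-encoded subunits of the oxidative phosphorylation system were followed by RNA-seq in control and Rbbp4 mutant mouse embryonic stem cells (ESCs). The genes were taken by symbol: Nduf followed by a, b, c, s or v and a number for complex I, Sdha to Sdhd for complex II, names starting with Uqcr for complex III, names starting with Cox4, Cox5, Cox6, Cox7 or Cox8 for complex IV, and names starting with Atp5 for complex V. This gave 84 of the 25239 symbols in the files, with 36 genes in complex I, 4 in complex II, 8 in complex III, 19 in complex IV and 17 in complex V. Of these, 80 had enough reads to be tested. The other 4 were Cox8b, Cox8c, Ndufs5 and the pseudogene Cox7c-ps1. None of the subunits that mitochondrial DNA encodes is among the symbols, so only the nuclear share of each complex was analysed here.

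Complexes I to IV pass electrons from NADH and succinate to oxygen along the inner mitochondrial membrane, and complexes I, III and IV pump protons while they do so. Complex V, the ATP synthase, lets the protons back through a rotating ring and uses this to make ATP. Most subunits are encoded in the nucleus, made in the cytosol and imported, and their genes have long been studied as a group that responds to the factors NRF-1, GABP (an ETS factor), YY1 and ERRα. Naive ESCs are known to use both respiration and glycolysis.

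All cells were E14 mouse ESCs, an established line, grown in serum with leukemia inhibitory factor. The control was Rbbp4+/+ ESCs. Both mutants carry Cas9-made changes near the N-terminus of RBBP4, a histone-binding subunit of PRC2 and of histone deacetylase complexes. Rbbp4 Ins/Ins has the same small in-frame insertion on both alleles, which changes 1 residue and adds a cysteine, and Rbbp4 Ins/Del has that insertion on 1 allele and an in-frame deletion on the other. Each mutant line is 1 clone, so clone and genotype cannot be told apart. There were 3 libraries of each line. The sources do not say whether these came from separate cultures, and p-values measure the spread between these libraries. Library totals ranged from 15838064 to 21366868 counts.

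Rbbp4 itself had a normalized read count of 10005 ± 99.0 (SD, n = 3) in the control, 5604 ± 153 in Ins/Ins and 10359 ± 238 in Ins/Del. It fell by 0.84 on the log2 scale in Ins/Ins (edgeR adjusted p = 1.78e-25) and had a log2 fold change of 0.05 in Ins/Del (adjusted p = 0.107). Small in-frame edits need not change the count of a gene, so these values do not check the genotypes. All 8 ESC markers examined, such as Pou5f1 and Nanog, were read in every group, and their summed normalized count was 91721 to 95904 in the control libraries and 114527 to 117253 in the mutant libraries. Summed fibroblast marker counts were 881 to 958 in the control, 674 to 756 in Ins/Ins and 878 to 906 in Ins/Del, and those of primitive endoderm were 424 to 454, 281 to 361 and 410 to 448. These sums hide genes that went opposite ways. Of the 8 ESC markers 6 rose and 1 fell in Ins/Ins, and 5 rose and 0 fell in Ins/Del. Pou5f1 was the gene that fell, with a log2 fold change of -0.12 in Ins/Ins (edgeR adjusted p = 0.000203). Of the 5 tested fibroblast markers 2 rose and 3 fell in each line, with Thy1 at 45.7 normalized counts in the control, 246 in Ins/Ins and 312 in Ins/Del and Col1a2 with log2 fold changes of -5.28 and -4.76. Of the 7 tested primitive endoderm markers 2 rose and 2 fell in Ins/Ins and 5 rose and 2 fell in Ins/Del. Among all tested genes, 29.0% rose and 29.4% fell in Ins/Ins, and 30.6% rose and 31.9% fell in Ins/Del. No marker was at 0 in a whole group. In such bulk samples, fewer cells of a type and less RNA per cell cannot be told apart, and the part of these marker differences in the results was not tested.

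Promoter sequence is shown for 4 complex V genes, namely Atp5g1, which had the largest log2 fold change of complex V in both lines, and 3 genes that hold a match to a motif tied to this gene group. Each is the 250 bases before the RefSeq start (GRCm38.p6, minus strand of the chromosome, written 5′ to 3′ along the gene). They were chosen after the values were seen. Capitals mark a match to the NRF-1 motif (GCGC, any pair of bases, GCGC) in Atp5k, to the ETS motif CCGGAAG in Atp5l and to the ERR motif TCAAGGTCA in Atp5g3, the last 2 on the opposite strand. No match to any of the motifs was found in these 250 bases of Atp5g1.

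Atp5g1, chr11:96075632-96075881: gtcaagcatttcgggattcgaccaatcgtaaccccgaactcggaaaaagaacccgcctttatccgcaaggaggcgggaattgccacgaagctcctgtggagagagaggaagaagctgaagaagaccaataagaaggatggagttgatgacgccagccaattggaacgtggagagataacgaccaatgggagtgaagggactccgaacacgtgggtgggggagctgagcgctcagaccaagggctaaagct
Atp5k, chr5:108434400-108434649: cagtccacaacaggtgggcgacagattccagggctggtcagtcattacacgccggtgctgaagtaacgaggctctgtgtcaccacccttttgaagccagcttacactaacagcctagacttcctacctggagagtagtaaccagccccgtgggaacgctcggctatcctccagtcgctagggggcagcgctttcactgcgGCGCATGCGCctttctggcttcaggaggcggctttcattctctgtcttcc
Atp5l, chr9:44920743-44920992: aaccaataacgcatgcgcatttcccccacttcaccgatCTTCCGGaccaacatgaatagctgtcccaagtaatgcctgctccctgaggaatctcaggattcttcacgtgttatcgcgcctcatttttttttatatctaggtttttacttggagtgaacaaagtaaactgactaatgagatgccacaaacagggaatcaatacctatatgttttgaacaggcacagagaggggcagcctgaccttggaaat
Atp5g3, chr2:73911327-73911576: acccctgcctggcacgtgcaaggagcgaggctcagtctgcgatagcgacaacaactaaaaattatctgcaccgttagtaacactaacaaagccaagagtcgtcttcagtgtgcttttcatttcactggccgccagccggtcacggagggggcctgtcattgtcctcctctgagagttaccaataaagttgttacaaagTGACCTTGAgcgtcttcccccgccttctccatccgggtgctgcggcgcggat

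Promoter windows from 250 bases before to 50 after the start were found for 68 of the 84 genes and for 27025 genes in all, and both strands were searched. The 27025 include genes outside the 14125 tested ones, and shares among tested genes alone were not worked out. The NRF-1 motif was present in 18 of the 68 subunit genes (26.5%) and in 7.0% of all genes. The ETS motif was present in 17 (25%, against 9.93% of all genes), the YY1 motif AAGATGGC in 10 (14.7%, against 3.19%) and the ERR motif in 2 (2.94%, against 0.466%). Among tested subunit genes, the median log2 fold change in Ins/Ins was 0.26 for the 17 with an NRF-1 match and 0.33 for the 49 without, and in Ins/Del it was 0.25 and 0.28. For the ETS motif the medians with and without a match were 0.31 and 0.30 in Ins/Ins and 0.30 and 0.27 in Ins/Del. For the YY1 motif they were 0.32 and 0.30 in Ins/Ins and 0.33 and 0.26 in Ins/Del. The 2 genes with an ERR match had medians of 0.24 and 0.33, against 0.31 and 0.28 for the rest. These differences were not tested. A match describes these letters only and is not a bound site.

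**Figure D1:**
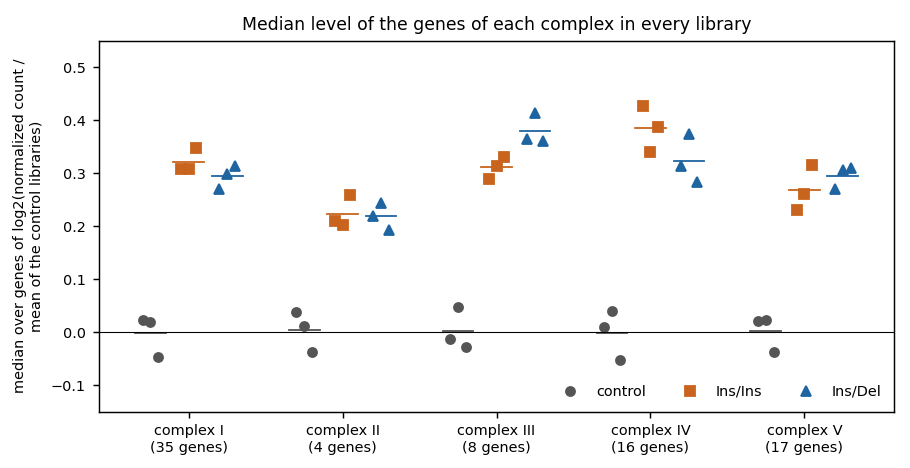
Median over the tested genes of each complex of log2(normalized count divided by the mean of the control libraries), for each of the 9 libraries. Points are libraries and short lines are group means. The mutant libraries lie between 0.19 and 0.43 in every complex, and the control libraries between −0.05 and 0.05.

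Most subunit genes were expressed more in both Rbbp4 mutants before any adjustment for transcript length and GC content. After it, 36 of the 80 tested genes rose in both lines. The counts that follow here are without this adjustment. In Ins/Ins, 69 of the 80 tested genes rose and 1 fell against the control (edgeR quasi-likelihood test, adjusted p at most 0.01), while 29.0% of all 14125 tested genes rose and 29.4% fell (58.4% in either direction). In Ins/Del, 65 rose and 1 fell, against 30.6% and 31.9% of all tested genes (62.5% in either direction). The gene that fell was Cox6b2 in both lines. Altogether 62 genes rose in both lines, 7 passed the test in neither and 0 changed in opposite directions. Both comparisons share the control libraries.

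The changes were modest. The median log2 fold change of the 80 genes was 0.30 in Ins/Ins and 0.29 in Ins/Del, and that of all tested genes was 0.0038 and −0.0107. The subunit genes took 0.934% ± 0.0235 (SD, n = 3) of all counts in the control, 1.11% ± 0.011 in Ins/Ins and 1.10% ± 0.018 in Ins/Del. In 70 genes every Ins/Ins library lay above every control library, and in 67 every Ins/Del library did. The same held for 34.9% and 35.9% of all tested genes. The third control library had the lowest subunit levels of the control, with 15 of 80 genes above the control mean, where the other control libraries had 51 and 54. Without it, 65 genes rose in Ins/Ins and 60 in Ins/Del.

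Transcript length moved with these values. Subunit mRNAs are short, with a median of 709 bases (315 to 3171) against 2761 for all tested genes. In both mutants, shorter mRNAs had higher median changes. Of all tested genes under 500 bases, however, 32.7% rose in Ins/Ins and 30.9% in Ins/Del. These shares lay near the 29.0% and 30.6% of all tested genes. All tested genes under 500 bases had a median log2 fold change of 0.24 in Ins/Ins and 0.21 in Ins/Del, those of 500 to 1000 bases 0.15 and 0.13, and those of 4000 bases or more −0.08 and −0.09. The subunit genes lay above this trend in each length class they occupy. The 43 of 500 to 1000 bases had medians of 0.33 and 0.34, and 36 and 38 of them rose, against 40.1% and 39.7% of all genes of that length. With each library's trend with length and GC content taken out, 46 subunit genes rose and 3 fell in Ins/Ins, against 29.4% and 29.4% of all tested genes, and 41 rose and 4 fell in Ins/Del, against 31.7% and 31.6%. Their median log2 fold changes were then 0.16 and 0.17, and 36 genes rose in both lines.

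**Figure D2:**
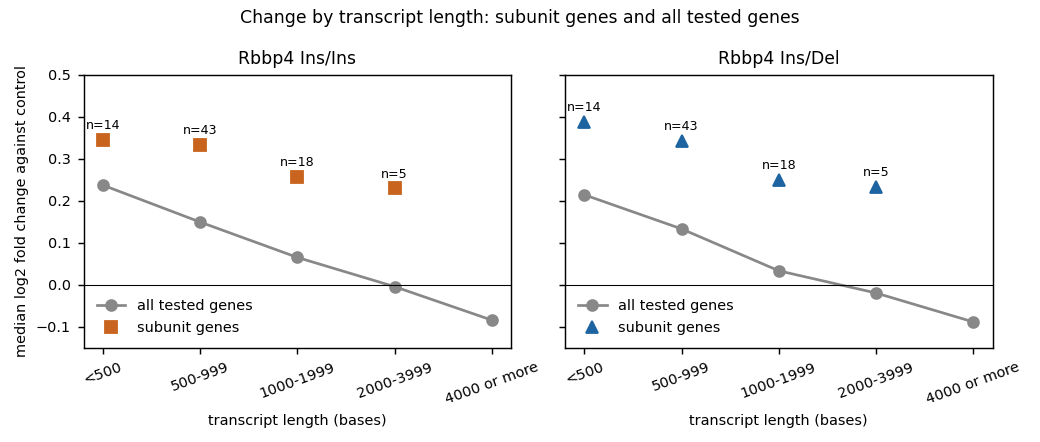
Median log2 fold change against the control by transcript length in bases, for all tested genes (grey line) and the subunit genes (coloured points, with their number n) in each mutant. The subunit medians lie above the line in the 4 length classes that hold subunit genes, and both fall as length grows.

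Complex I oxidises NADH and is built from 7 nuclear-encoded catalytic core subunits, their mitochondrially encoded partners and many accessory subunits. By symbol, the only basis here for placing a gene in a complex, it had the most genes in the set. Of its 35 tested genes, 30 rose in Ins/Ins and 28 in Ins/Del, and 0 fell. The median log2 fold changes were 0.33 and 0.30. Of the 28 tested accessory genes 24 and 23 rose, and of the 7 core genes 6 and 5. After removal of the length and GC trends, 19 of the 35 rose in Ins/Ins and 11 in Ins/Del, while Ndufa6 fell in both and Ndufv3 in Ins/Del. In that fit 29.4% of all tested genes rose in Ins/Ins and 31.7% in Ins/Del. The share of complex I genes that rose in Ins/Del thus lay near that of all tested genes.

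Before removal of the length and GC trends, accessory subunits had the largest changes of complex I. Ndufa1, at chrX:37187588-37191163, reached a normalized count of 512, 467 and 479 in the 3 control libraries, 729, 727 and 736 in Ins/Ins and 692, 789 and 735 in Ins/Del. All mutant libraries lay above all control libraries. The log2 fold change was 0.58 ± 0.06 (SE) in Ins/Ins (adjusted p = 4.82e-11) and 0.60 ± 0.06 in Ins/Del (adjusted p = 1.81e-11). Ndufb7, at chr8:83566671-83571626 and also an accessory subunit of the membrane arm, went from 668, 638 and 564 in the control to 948, 911 and 950.4 in Ins/Ins and 899.6, 939 and 964 in Ins/Del. Its mutant libraries again stood clear of the control, with log2 fold changes of 0.58 ± 0.056 and 0.58 ± 0.056. Ndufa11 counted 721, 787 and 703 in the control, 1109, 1049 and 1022 in Ins/Ins and 1083, 1032 and 1026 in Ins/Del, a log2 rise of 0.53 ± 0.052 and 0.51 ± 0.052. Ndufa9, an accessory subunit that binds a nucleotide cofactor, counted 1602, 1625 and 1651 in the control, 2276, 2323 and 2241 in Ins/Ins and 2251, 2327 and 2380.0 in Ins/Del, a log2 rise of 0.49 ± 0.037 and 0.51 ± 0.037. All 4 passed the test in both lines also with the length and GC trends taken out, with log2 fold changes of 0.31 to 0.42.

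Among core subunits, Ndufv1, which holds the flavin that takes electrons from NADH, rose by 0.39 ± 0.036 on the log2 scale in Ins/Ins and by 0.32 ± 0.036 in Ins/Del. With the length and GC trends taken out, Ndufv1 rose by 0.37 in Ins/Ins, the largest value of complex I there, and by 0.35 in Ins/Del. Ndufs1, the largest iron-sulfur subunit, rose by 0.23 and 0.28. Ndufs7, which carries the last iron-sulfur cluster before ubiquinone, did not pass the test in either line. Its counts of 721, 657 and 676 in Ins/Ins and 665, 631 and 609.8 in Ins/Del overlapped the 603, 683 and 594 of the control, and the 95% interval of its log2 fold change was 0.01 to 0.25 in Ins/Ins and -0.10 to 0.14 in Ins/Del. The accessory genes Ndufa6 and Ndufa13 did not pass it either, with intervals of -0.07 to 0.14 and -0.16 to 0.05 for Ndufa6 and 0.01 to 0.22 and -0.06 to 0.15 for Ndufa13.

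Ndufs5 was nearly unread, with 0, 0 and 0 reads in the control libraries, 1, 3 and 4 in Ins/Ins and 2, 0 and 1 in Ins/Del. A count of 0 allows up to 3 reads. Of its 50-base windows, 41.18% also occur in another gene or pseudogene, and how shared reads were counted is not given in the sources used here.

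**Figure D3:**
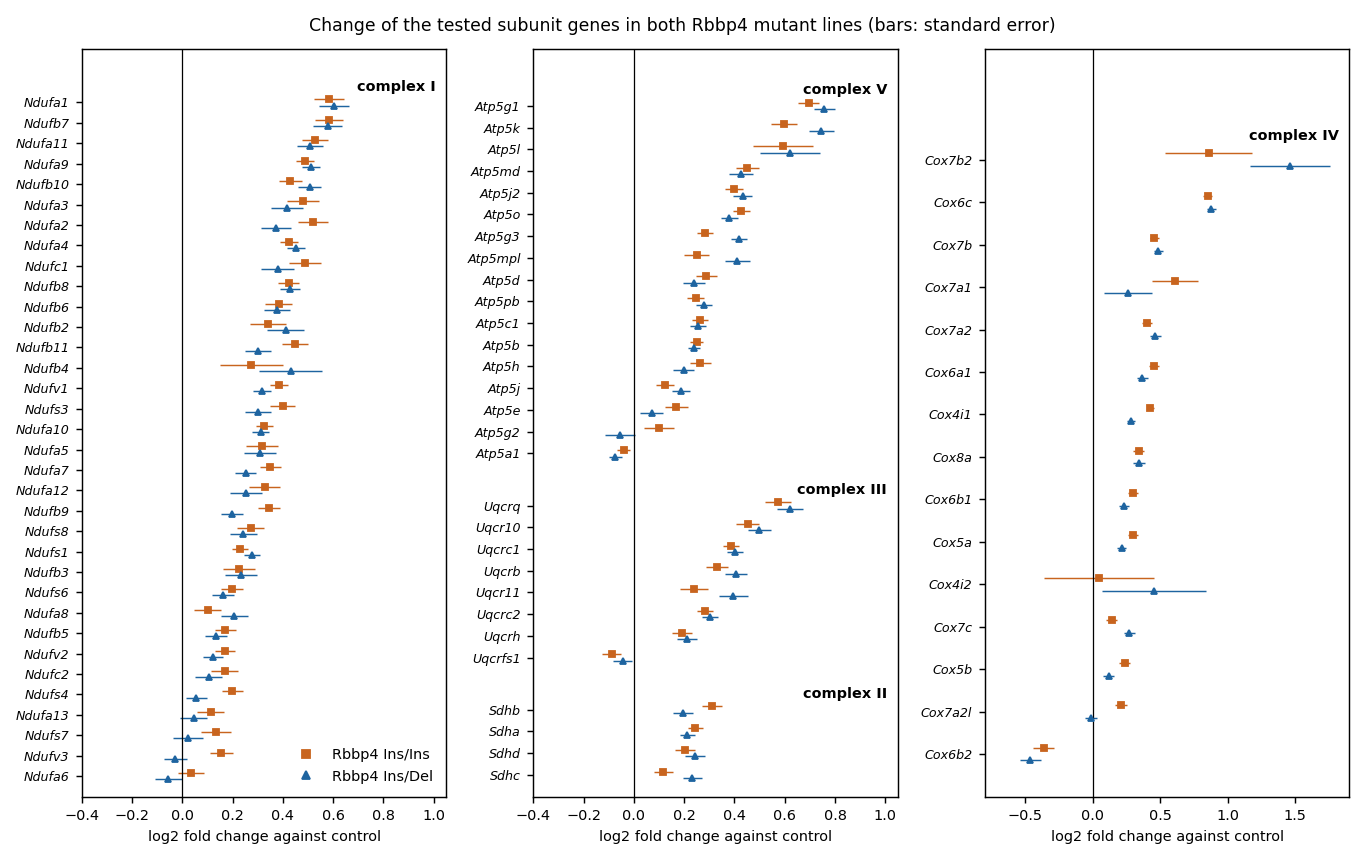
Log2 fold change against the control (x axis) of tested subunit genes in Ins/Ins (squares) and Ins/Del (triangles), with standard error, by complex. Cox6a2, at 5.09 and 3.69, is left out because its control libraries held 1 read. Nearly all points lie right of 0, Cox6b2 lies left of it at −0.37 and −0.46, and Cox6c and Atp5g1 lie far to the right in both mutants.

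Complex II, succinate dehydrogenase, is also an enzyme of the TCA cycle and is encoded wholly in the nucleus. All 4 of its genes rose in both lines, with a median log2 fold change of 0.22 in each. Sdhb, the iron-sulfur subunit (chr4:140961203-140979193), reached 1584, 1562 and 1456 in the control, 1952, 1887 and 1866 in Ins/Ins and 1778, 1772 and 1722 in Ins/Del. The groups did not overlap, with log2 fold changes of 0.31 ± 0.04 (adjusted p = 1.03e-08) and 0.19 ± 0.04 (adjusted p = 4.76e-05). Sdha, the flavoprotein that oxidises succinate, counted 5160.3, 5043 and 4953 in the control, 5905, 5955 and 6088 in Ins/Ins and 5849, 6008 and 5702 in Ins/Del. It was 1.18-fold and 1.16-fold higher.

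The genes of the membrane anchors rose as well. Sdhd counted 1688, 1612 and 1571 in the control, 1859.5, 1824 and 1930.3 in Ins/Ins and 1922, 1965 and 1879 in Ins/Del. Sdhc counted 1758, 1803 and 1745 in the control, 1995, 1856 and 1892 in Ins/Ins and 2067, 2087 and 2075 in Ins/Del. Both had every mutant library above every control library. The log2 fold change of Sdhc in Ins/Ins, 0.12 ± 0.038 (adjusted p = 0.00655), passed the test in 6 of 9 fits that each left out 1 library. It did not pass without control library 1 (adjusted p = 0.0223), control library 3 (0.0133) or Ins/Ins library 1 (0.0415), nor in DESeq2 (0.0188). With the length and GC trends taken out, Sdhd passed in neither line (log2 fold changes 0.06 and 0.07) and Sdhc passed in Ins/Del only.

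Complex III hands electrons from ubiquinol to cytochrome c. Of its 8 genes 7 rose in each line, with median log2 fold changes of 0.31 in Ins/Ins and 0.40 in Ins/Del. After removal of the length and GC trends, 5 rose in Ins/Ins and 6 in Ins/Del. Before this removal, the largest changes were in the small subunits Uqcrq and Uqcr10. After it, Uqcrq still had the largest log2 fold changes, 0.45 in Ins/Ins and 0.50 in Ins/Del. The core protein gene Uqcrc1 came next at 0.33 and 0.41, and Uqcr10 was at 0.15 and 0.25. Uqcrq (chr11:53427922-53430831) reached 887, 1027 and 899.7 in the control, 1459, 1364 and 1343 in Ins/Ins and 1453, 1494 and 1361 in Ins/Del. Each mutant library was higher than each control library, and the log2 fold changes were 0.57 ± 0.051 (adjusted p = 1.26e-12) and 0.62 ± 0.051 (adjusted p = 1.02e-13). Uqcr10 counted 1084, 1136 and 1073 in the control, 1591, 1423 and 1478 in Ins/Ins and 1534, 1537 and 1585 in Ins/Del, 1.37-fold and 1.41-fold higher. Uqcrb counted 1095, 1150.2 and 1095 in the control, 1375, 1399 and 1429 in Ins/Ins and 1404, 1481 and 1538 in Ins/Del. It was 1.26-fold and 1.32-fold higher, with no overlap of the mutant and control libraries. A share of 43.42% of the 50-base windows of Uqcrb also occurs in other genes or pseudogenes.

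The core protein gene Uqcrc1 (chr9:108936633-108949623) counted 3739, 3923 and 3513 in the control, 4908, 4878 and 4818 in Ins/Ins and 4894, 4965 and 4917 in Ins/Del. Its rise of 0.39 ± 0.033 and 0.40 ± 0.033 on the log2 scale became 0.33 and 0.41 with the length and GC trends taken out. Uqcrfs1, the Rieske iron-sulfur protein, stood apart from the rest of the complex. It counted 2162, 2169 and 2177 in the control, 1988, 1994 and 2142 in Ins/Ins and 2076, 2122 and 2109 in Ins/Del. No mutant library reached the lowest control library, yet the log2 fold changes of -0.09 ± 0.037 (adjusted p = 0.0315) and -0.04 ± 0.036 (adjusted p = 0.272) did not pass the test. It fell in both lines once the length and GC trends were taken out, with log2 fold changes of -0.21 (adjusted p = 4.1e-07) and -0.17 (adjusted p = 2.12e-05).

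Complex IV, cytochrome c oxidase, reduces oxygen to water. Its nuclear subunits surround a mitochondrially encoded core, and several exist in forms that are used in different tissues. Of 16 tested genes, 13 rose and 1 fell in Ins/Ins, and 12 rose and 1 fell in Ins/Del. The median log2 fold changes were 0.37 and 0.31. After removal of the length and GC trends, 9 rose and 1 fell in each line.

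Cox6c, a small membrane subunit (chr15:35925886-35938246), had the largest rise apart from the little-read Cox6a2 and Cox7b2. It counted 2039.8, 2015 and 1916 in the control, 3646, 3645 and 3476 in Ins/Ins and 3595, 3646 and 3737 in Ins/Del. The lowest mutant library was far above the highest control library. The gene was 1.80-fold higher in Ins/Ins (log2 0.85 ± 0.035, adjusted p = 4.69e-23) and 1.84-fold higher in Ins/Del (log2 0.88 ± 0.035, adjusted p = 1.31e-23). Removal of the length and GC trends left log2 fold changes of 0.62 and 0.64. Of its 50-base windows, 21.15% also occur in another gene or pseudogene.

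**Figure D4:**
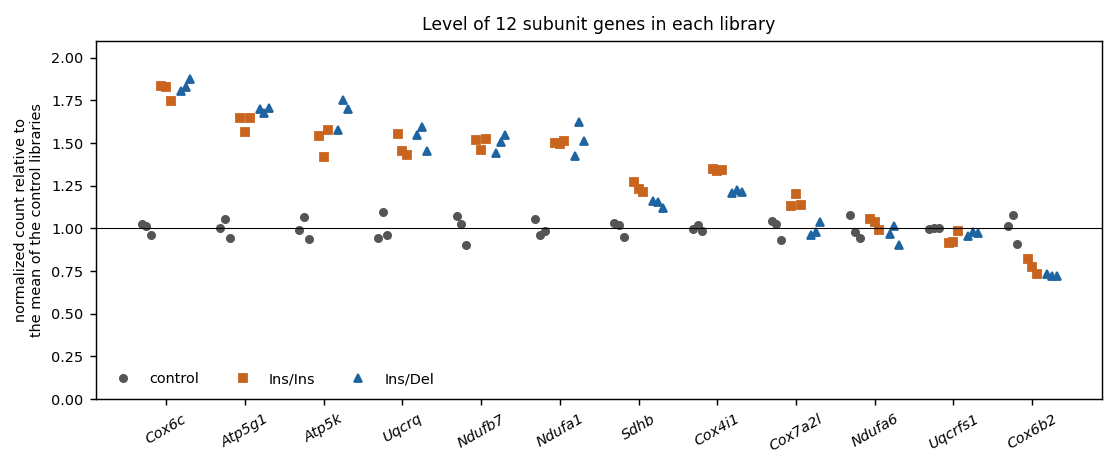
Normalized count of 12 subunit genes in each of the 9 libraries, relative to the mean of the control libraries (y axis from 0). Cox6c libraries of both mutants lie near 1.8, Ndufa6 libraries of all groups overlap around 1, Cox6b2 lies below 1 in all mutant libraries, and Cox7a2l is above the control in Ins/Ins only.

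The common forms of the complex IV subunits rose in both lines. Cox4i1 counted 5301, 5444 and 5254 in the control, 7206, 7115 and 7162 in Ins/Ins and 6428, 6546 and 6478 in Ins/Del. Cox6a1 counted 1965, 1996 and 1829.7 in the control, 2781, 2579.6 and 2569 in Ins/Ins and 2474, 2514 and 2482 in Ins/Del. Cox6b1 counted 2036, 2056 and 1936 in the control, 2449.7, 2487 and 2491 in Ins/Ins and 2266, 2475 and 2312 in Ins/Del. In these 3 genes the mutant libraries all lay above the control libraries. Cox7a2 counted 1669, 1701 and 1693 in the control, 2232, 2187 and 2247 in Ins/Ins and 2207, 2413 and 2356 in Ins/Del. Cox7b counted 2695, 2638 and 2696 in the control, 3597, 3706 and 3716 in Ins/Ins and 3599, 3839 and 3795 in Ins/Del. These were again higher in every mutant library. Cox8a counted 2107, 2074 and 1829 in the control, 2690.1, 2477 and 2431 in Ins/Ins and 2598, 2588 and 2443 in Ins/Del. The log2 fold changes of these 6 genes ran from 0.30 (Cox6b1) to 0.46 (Cox7b) in Ins/Ins and from 0.23 (Cox6b1) to 0.48 (Cox7b) in Ins/Del. After removal of the length and GC trends, Cox6b1 alone of the 6 did not pass in either line, with log2 fold changes of 0.04 and -0.03.

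Cox6b2, the form of COX6B best known from testis, went the other way. It counted 374, 398 and 336 in the control, 302, 285 and 271 in Ins/Ins and 269.9, 267 and 266 in Ins/Del, so all mutant libraries were below all control libraries. The log2 fold change was -0.37 ± 0.078 in Ins/Ins (adjusted p = 9.54e-05) and -0.46 ± 0.08 in Ins/Del (adjusted p = 2.66e-06). It became -0.65 and -0.70 with the length and GC trends taken out. Per transcript length, Cox6b2 made up 20.7% ± 0.903 (SD, n = 3) of Cox6b1 and Cox6b2 together in the control, 14.1% ± 0.767 in Ins/Ins and 13.9% ± 0.597 in Ins/Del. The share was 20.7, 21.6 and 19.8% in the 3 control libraries and at most 14.9% in a mutant library.

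The other tissue-restricted forms were read little. Cox6a2, the heart and muscle form of COX6A, had 0, 1 and 0 reads in the control libraries, 21, 10 and 15 in Ins/Ins and 5, 10 and 2 in Ins/Del. Every mutant library held more reads than any control library. The ratio to the control was 46.7 (95% counting interval 7.98 to 1885) in Ins/Ins and 17.6 (2.75 to 733.9) in Ins/Del. The gene is counted among those that rose in both lines, but it passed the filter on low counts only through mutant libraries, so its calls are no support for a rise. The call in Ins/Del was lost without Ins/Del library 2 (adjusted p = 0.0201). Even in Ins/Ins, Cox6a2 made up 0.474% ± 0.0941 of the COX6A forms per transcript length. The counting interval covers counting error only, since the reads carry no molecular identifiers that are known here.

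Cox7b2, a form described in testis, had 12, 12 and 10 reads in the control libraries, 24, 18 and 19 in Ins/Ins and 34, 27 and 30 in Ins/Del. Its log2 fold change of 1.46 ± 0.30 passed the test in Ins/Del (adjusted p = 4.04e-05), and 0.86 ± 0.32 in Ins/Ins did not (adjusted p = 0.0185). The difference between the mutants did not pass it (adjusted p = 0.107). Cox7b2 is counted among the genes that rose in Ins/Del. Its control libraries alone did not meet the filter on low counts and the mutant libraries did, so this call is no support for a rise. Cox7a1, the heart and muscle form of COX7A, counted 47.0, 42.9 and 45.5 in the control, 65.0, 74.5 and 68.7 in Ins/Ins and 48.0, 58.6 and 55.5 in Ins/Del. It rose in Ins/Ins by 0.61 ± 0.17 (adjusted p = 0.002), with 0.26 ± 0.18 in Ins/Del (adjusted p = 0.195), and DESeq2 did not call the rise (adjusted p = 0.0171). Cox4i2, the form induced by low oxygen, had 14, 16 and 9 reads in the control, 25, 4 and 11 in Ins/Ins and 21, 23 and 8 in Ins/Del, and its groups overlapped. Cox8c had 3, 4 and 2 reads in the control, 10, 4 and 4 in Ins/Ins and 5, 7 and 3 in Ins/Del, and Cox8b had 0 in all 9 libraries, which allows up to 3 reads in each.

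**Figure D5:**
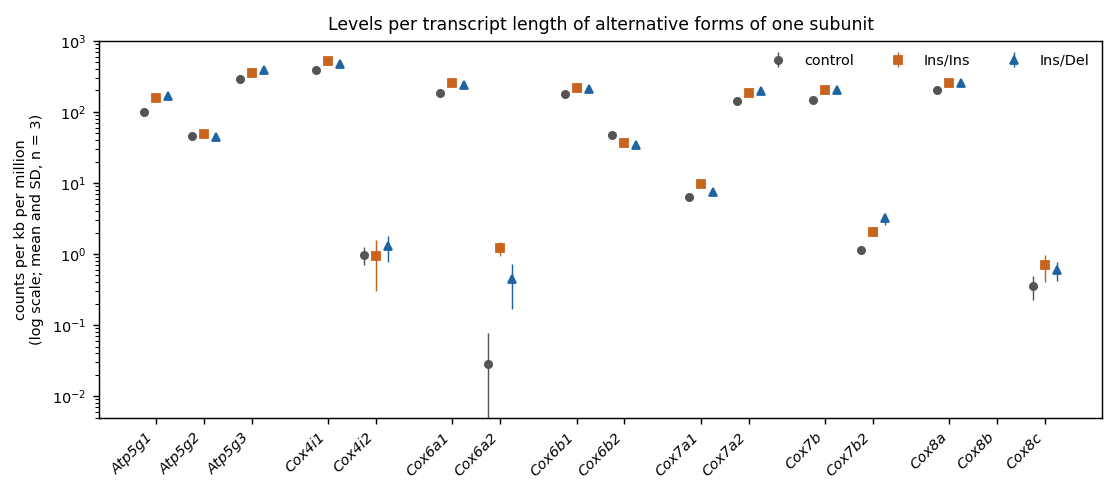
CPM per kb of transcript (log axis, mean and SD of 3 libraries) of alternative forms of the same subunit, in control, Ins/Ins and Ins/Del. Atp5g3 lies above Atp5g1 and Atp5g2 in all groups, the common COX forms lie near 100 or above it, and Cox6b2 is the only restricted COX form above 10. Cox8b, at 0, is not drawn.

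Complex V had 15 of 17 genes higher in Ins/Ins and 14 in Ins/Del, with 0 lower. The median log2 fold changes were 0.26 and 0.28. All 5 tested membrane subunits outside the c-ring and all 4 of the peripheral stalk rose in both lines. Of the 5 genes of the catalytic head and central stalk, 4 rose in Ins/Ins and 3 in Ins/Del, and of the 3 c-ring genes 2 rose in each. With the length and GC trends taken out, 11 complex V genes rose in Ins/Ins and 12 in Ins/Del. Differences between the complexes were not tested.

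The c subunit forms the proton-driven ring, and the 3 genes Atp5g1, Atp5g2 and Atp5g3 encode the same mature protein behind different import sequences. Atp5g1, at chr11:96068852-96075670 with the promoter shown above, counted 1069.5, 1122 and 1006 in the control, 1753, 1666 and 1755 in Ins/Ins and 1810.4, 1786 and 1815 in Ins/Del. All mutant libraries were well above the control. The log2 fold change was 0.69 ± 0.043 (adjusted p = 2.73e-17) in Ins/Ins and 0.76 ± 0.043 (adjusted p = 1.31e-18) in Ins/Del, and it was 0.47 and 0.51 with the length and GC trends taken out. Atp5g3 counted 3849, 3852 and 3529 in the control, 4523, 4482 and 4666 in Ins/Ins and 4906, 5046 and 5067 in Ins/Del, 1.22-fold and 1.34-fold higher. Atp5g2 counted 595, 649 and 593 in the control, 622, 654 and 696 in Ins/Ins and 578, 601 and 589 in Ins/Del. Its groups overlapped, and the 95% interval of the log2 fold change was -0.01 to 0.21 in Ins/Ins and -0.17 to 0.06 in Ins/Del. The Atp5g2 value is uncertain, since 87.39% of its 50-base windows also occur in other genes or pseudogenes.

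By these counts, the make-up of the c subunit mRNA thus differed between lines. The shares include the uncertain Atp5g2 value, and the length and GC trends were not taken out of them. Per transcript length, Atp5g1 made up 22.7% ± 0.312 (SD, n = 3) of the 3 genes in the control, 28.4% ± 0.533 in Ins/Ins and 27.9% ± 0.441 in Ins/Del. The libraries held 22.4, 23.1 and 22.7% in the control, 29.0, 28.0 and 28.2% in Ins/Ins and 28.4, 27.5 and 27.8% in Ins/Del, and mutant and control did not overlap. Atp5g3 remained the main form at 66.6% ± 0.685, 62.7% ± 0.221 and 64.7% ± 0.378, and Atp5g2 made up 10.7% ± 0.414, 8.84% ± 0.383 and 7.43% ± 0.105. With 3 libraries against 3, an exact permutation test of such a share cannot go below 0.1, and none was run.

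The other membrane subunits of complex V link the ring's housing and help pairs of ATP synthases to line up. Atp5k, the e subunit (chr5:108433244-108434448), counted 843, 905 and 797 in the control, 1306, 1202 and 1339 in Ins/Ins and 1338, 1488 and 1441 in Ins/Del. It was 1.51-fold and 1.68-fold higher (adjusted p = 6.02e-13 and 6e-16), with every mutant library above every control library. Atp5md, also called DAPIT, counted 1078, 1006 and 1033 in the control, 1398, 1386 and 1485 in Ins/Ins and 1313, 1427 and 1452 in Ins/Del, and was 1.37-fold and 1.34-fold higher. A share of 40.58% of its 50-base windows also occurs in other genes or pseudogenes. Atp5l, the g subunit, counted 110.3, 129.9 and 123 in the control, 195, 162 and 185 in Ins/Ins and 159, 219 and 174 in Ins/Del. Its log2 fold changes of 0.59 ± 0.12 and 0.62 ± 0.12 rest on few reads, and 84.85% of its 50-base windows also occur in other genes or pseudogenes, so its level is uncertain.

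In the catalytic head, the β subunit gene Atp5b was the most abundant subunit mRNA per transcript length, with 912 ± 19.1 CPM per kb of transcript in the control, 1084 ± 19.7 in Ins/Ins and 1077 ± 19.2 in Ins/Del (SD, n = 3). Its partner Atp5a1, the α subunit, came next in the control at 426 ± 9.87 and did not pass the test in either line. The normalized counts of Atp5b were 32458, 32086 and 31162 in the control, 37434, 37613 and 38706 in Ins/Ins and 37357, 38423 and 37184 in Ins/Del, a log2 rise of 0.25 ± 0.025 and 0.24 ± 0.025. Those of Atp5a1 were 19547, 19360.2 and 18699.7 in the control, 18334, 18457 and 19192 in Ins/Ins and 18125, 18322 and 18299.8 in Ins/Del, and the 95% interval of its log2 fold change was -0.09 to 0.01 in Ins/Ins and -0.13 to -0.02 in Ins/Del. The γ subunit gene Atp5c1 rose by 0.26 and 0.25 on the log2 scale.

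The mutants differed from each other in few subunit genes. In Ins/Del against Ins/Ins, 1 subunit gene was higher and 4 were lower, and 6.17% and 4.64% of all tested genes were (10.8% in either direction). Cox4i1 was lower in Ins/Del than in Ins/Ins with a log2 difference of -0.14 ± 0.028 (adjusted p = 0.000232), though above the control in both. Cox7a2l (chr17:83501918-83517330), which joins complexes III and IV into supercomplexes, counted 1293, 1268 and 1152 in the control, 1402, 1489.5 and 1404 in Ins/Ins and 1189.9, 1214 and 1283 in Ins/Del. Only the Ins/Ins libraries stood clear of the control, and the mutants differed by -0.22 ± 0.046 (adjusted p = 0.000557).

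The complex I accessory gene Ndufv3 showed the same order. Ndufv3 counted 1174, 1195 and 1239 in the control, 1410.5, 1239 and 1353 in Ins/Ins and 1152, 1186 and 1199 in Ins/Del, with a difference between the mutants of -0.18 ± 0.046 (adjusted p = 0.00409). Its Ins/Del libraries overlapped the control, and its lowest Ins/Ins library lay only just above the highest control library. With the length and GC trends taken out, it did not pass the test in Ins/Ins against the control, with a log2 fold change of -0.10 (adjusted p = 0.0414). In that fit it fell in Ins/Del against the control, with a log2 fold change of -0.28 (adjusted p = 1.63e-07). Atp5g3 was the gene that was higher in Ins/Del, by 0.14 ± 0.033 (adjusted p = 0.00247). Cox4i1 and Cox7a2l passed the test in all 9 fits that left out 1 library each, and Atp5g3 and Ndufv3 in 5. DESeq2 did not call Ndufv3 (adjusted p = 0.0202).

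Genes that work with these subunits moved in both directions. Their counts are to be read against the 29.0% of all tested genes that rose and 29.4% that fell in Ins/Ins and the 30.6% and 31.9% in Ins/Del. None of these gene lists was counted with the length and GC trends taken out. Of 9 tested subunits and carriers outside the naming rule, 7 rose in Ins/Ins and 4 in Ins/Del, and 0 fell. Among them were Cycs, the somatic cytochrome c (log2 fold changes 0.28 and 0.43), its testis form Cyct (0.71 and 0.95), Cyc1, the cytochrome of complex III (0.14 and 0.20), and Etfa, a carrier of electrons from fat oxidation (0.40 and 0.37). Of 49 assembly factors, 17 rose and 8 fell in Ins/Ins and 19 rose and 8 fell in Ins/Del. The shares that rose, 34.7% and 38.8%, lay near those of all tested genes. The copper carriers of complex IV assembly Cox17 (0.55 and 0.72) and Cox19 (0.73 and 0.76) rose, and the complex I factors Ndufaf6 (-0.44 and -0.75) and Tmem186 (-0.40 and -0.52) fell.

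Of 13 TCA cycle genes, 7 rose (53.8%, against 29.0% of all tested genes) and 3 fell in Ins/Ins and 8 rose (61.5%, against 30.6%) and 2 fell in Ins/Del. Mdh2 (malate dehydrogenase) rose by 0.41 and 0.50, while Sucla2, a succinyl-CoA synthetase subunit, changed by -0.83 and -0.77 and Fh1 (fumarase) by -0.35 and -0.29. Of 17 genes of mitochondrial import, chaperones and shape, 11 rose (64.7%) and 2 fell in Ins/Ins and 10 rose (58.8%) and 2 fell in Ins/Del. The import receptor Tomm22 (0.29 and 0.39) rose, and Dnm1l, the fission GTPase (-0.27 and -0.31), fell. Of 75 mitochondrial ribosomal protein genes, 37 rose (49.3%) and 5 fell in Ins/Ins and 40 rose (53.3%) and 5 fell in Ins/Del, with medians of 0.18 and 0.21. Their median transcript length was 1280 bases, against 2761 for all tested genes. Mrps10 (0.57 and 0.72) was among those that rose and Mrpl52 (-0.67 and -0.92) among those that fell.

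Of 11 tested regulators of mitochondrial gene expression, 4 rose and 1 fell in Ins/Ins and 4 rose and 2 fell in Ins/Del, with medians of 0.05 and 0.06. The share that rose, 36.4% in each line, lay near the 29.0% and 30.6% of all tested genes. Esrra, which encodes ERRα, had 255 ± 14.4 normalized counts in the control, 392 ± 12.6 in Ins/Ins and 422 ± 24.9 in Ins/Del (SD, n = 3). It rose by 0.62 ± 0.077 (adjusted p = 3.89e-09) and 0.73 ± 0.076 (adjusted p = 5.01e-11). Its coactivator gene Ppargc1b rose by 0.42 and 0.56, and Tfb2m, a mitochondrial transcription factor, by 0.36 and 0.44, while the related Tfb1m fell by 0.32 and 0.39. Pprc1, on the same list, had a log2 fold change of -0.05 in Ins/Ins (adjusted p = 0.136) and -0.17 in Ins/Del (adjusted p = 6.77e-06). Nrf1, which encodes NRF-1, had log2 fold changes of 0.05 and 0.01 (adjusted p = 0.265 and 0.909), and Yy1 of 0.04 and 0.06 (0.289 and 0.0843). Gabpa, which encodes the DNA-binding subunit of GABP, had a log2 fold change of 0.05 ± 0.035 in Ins/Ins (adjusted p = 0.231) and rose by 0.15 ± 0.035 in Ins/Del (adjusted p = 0.000202). The difference of Gabpa between the mutants did not pass the test (adjusted p = 0.03).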

How the data were processed

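RNA-seq of E14 ESCs was analysed in 9 libraries, 3 each of control, Rbbp4 Ins/Ins and Rbbp4 Ins/Del. The authors deposited raw read counts per gene symbol for each library. They aligned paired-end reads to mm10 with STAR (version 2.7.3) and counted them with HTSeq, and they used DESeq2 (version 1.22.2) with a limit of 0.01 on the adjusted p. The annotation, the HTSeq version and its strand setting are not given in the sources used here. Without the strand setting, reads of overlapping genes cannot be told apart. In 21 of the 84 subunit genes, at least 20% of the 50-base windows also occur in another gene or pseudogene. In 8, at least 20% of the exon bases lie under an exon of another gene.

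The counts were fitted here with edgeR 4.0.16 in R 4.3.3 (quasi-likelihood test, TMM scaling, genes kept by filterByExpr, all 9 libraries in 1 fit with a term for each line). P-values were adjusted by Benjamini-Hochberg over 14125 tested genes, and a gene was called at an adjusted p of at most 0.01. Every adjusted p is from this fit unless DESeq2 (1.42.0) is named. Normalized counts are counts scaled to the mean effective library size. Fold changes are log2 values with standard errors. Library totals were 15838064 to 21366868 counts. Replicates differed by more than sampling noise (mean chi-square per gene of 1.89 to 4.77), so none is a copy of another.

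Levels per length used 1 transcript per gene from GENCODE M21 (GRCm38, the same assembly as mm10), which matched all 84 subunit genes and 24839 of 25239 symbols. Gene positions are from the same annotation and promoters from RefSeq. The offset for length and GC content took out, in each library, the running median over 50 bins of the deviation from the gene's mean.

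Values in each library are given for the 4 genes per complex with the largest change called in both lines, for genes called between the mutants, for genes with a called log2 change above 1 and for alternative forms of the same subunit. Others were named after their values were seen, and some genes are counted but not reported by name. The members and gene lists were chosen with earlier results of these data known. The fits were tested on simulated data. Alternatives were DESeq2, its size factors, scaling by totals, no filter, only the groups compared, a replicate block, each library left out, and a limit of 0.05. Offsets for length with GC content and for mean level were added after seeing the data.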

Additional observations from a re-analysis of the deposited data

Results flagged for a closer look

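The 4 subunit genes below were picked out because their change against the control differed between the 2 mutant lines in a direct test of Ins/Del against Ins/Ins (edgeR adjusted p at most 0.01). The log2 difference was −0.18 for Ndufv3 (adjusted p = 0.00409), −0.14 for Cox4i1 (0.000232), −0.22 for Cox7a2l (0.000557) and 0.14 for Atp5g3 (0.00247). Such a difference was called for 10.8% of all 14125 tested genes and for 5 of the 80 subunit genes. For Ndufv3 (only just) and Cox7a2l the Ins/Ins libraries all lay above the control and the Ins/Del libraries overlapped it, while Cox4i1 and Atp5g3 lay above the control in both lines. With the length and GC trends taken out, the differences of Cox7a2l (adjusted p = 0.00327), Ndufv3 (0.0012) and Atp5g3 (0.00134) still passed the test, and that of Cox4i1 (0.0208) did not. In that fit Ndufv3 was not called in Ins/Ins against the control and fell in Ins/Del (log2 fold change −0.28, adjusted p = 1.63e-07). Each line is 1 clone, so a difference between the lines and a difference between clones cannot be told apart. No group had the 4 samples that a check for outlying samples needs.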

How the results depend on the processing

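Of 148 results on single subunit genes, 141 of them calls, 92 kept their direction and their side of the limit under all alternatives. The largest effect came from taking out the trend with length and GC content, which was chosen after seeing the data. It ended 49 of the 141 calls, 15 of them with a turned direction, and added 10, and 41 genes rose in Ins/Del. It left 3 genes lower in Ins/Ins and 4 in Ins/Del, and 4 higher in Ins/Del than in Ins/Ins. Under it the median log2 fold changes in Ins/Ins were 0.1560 for all genes and 0.1509, 0.1436, 0.1625, 0.1667 and 0.1622 for complexes I to V, and in Ins/Del 0.1723 and 0.1264, 0.1493, 0.2405, 0.2131 and 0.1938. The called directions it turned in Ins/Ins were Ndufc2 (−0.0290), Ndufs6 (−0.0446), Ndufv3 (−0.0974), Uqcrh (−0.0346), Atp5e (−0.0669), Atp5j (−0.0430) and Atp5mpl (−0.0724). In Ins/Del they were Ndufa12 (−0.0345), Ndufa7 (−0.0099), Ndufb9 (−0.0117), Ndufs6 (−0.0911), Uqcrh (−0.0345), Cox5b (−0.0265), Cox6b1 (−0.0288) and Atp5h (−0.0593). Uncalled directions that turned were those of Cox4i2 (−0.1171), Ndufa6 (−0.25, then called lower) and Ndufa8 (−0.06) in Ins/Ins, of Ndufc2 (−0.11), Atp5e (−0.12), Ndufs7 (−0.05) and Ndufa13 (−0.0078) in Ins/Del, and of 9 genes between the mutants. A first form of this offset, with smoothed means, called 35 genes higher and 10 lower in Ins/Ins and 32 and 16 in Ins/Del. The median log2 fold changes of the subunit genes under this first form were 0.0863 and 0.0565. This form left all genes of 500 to 1000 bases at medians of −0.0904 and −0.1191, and was replaced after the subunit values under it were seen.

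The offset for mean level, also chosen after seeing the data, gave 3 genes lower in Ins/Ins, 2 lower in Ins/Del and 2 higher between the mutants. Its medians in Ins/Ins were 0.2824 for all genes, 0.3025 for complex I, 0.1899 for complex II and 0.2738 for complex III, and in Ins/Del 0.2732 for complex I, 0.3641 for complex III and 0.2074 for complex V. Scaling by total counts gave a median of 0.2909 in Ins/Ins and 2 genes lower in Ins/Del. Size factors of DESeq2 gave 2 higher between the mutants, and DESeq2 gave 2 lower and ended 13 calls. A limit of 0.05 gave 2 lower in Ins/Ins, 2 lower in Ins/Del, and 6 higher and 10 lower between the mutants. The cause of these differences was not tested.

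With 1 library left out, 63 to 70 genes rose and 1 to 2 fell in Ins/Ins, 60 to 65 rose and 1 to 2 fell in Ins/Del, and 0 to 3 were higher and 2 to 6 lower between the mutants. Medians ranged from 0.2907 to 0.3271 in Ins/Ins for all genes, from 0.3095 to 0.3668 in Ins/Ins and 0.2769 to 0.3131 in Ins/Del for complex I, from 0.2965 to 0.3350 and 0.3771 to 0.4452 for complex III, and from 0.2680 to 0.3053 in Ins/Del for complex V. Of uncalled values, 2 turned. Cox4i2 in Ins/Ins was −0.0008 in DESeq2 and ranged from −0.6261 to 0.4018 with 1 library left out, lowest without Ins/Ins replicate 1 and also below 0 without control replicate 1 or 3. Cox7a2l in Ins/Del ranged from −0.0517 to 0.0201, above 0 without control replicate 1, control replicate 2 or Ins/Del replicate 1.

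The labels number the libraries, but the numbers did not pair them, since correlations of deviations were −0.0277 to 0.0559 over 9 pairs of the same number and −0.0566 to 0.0619 over 18 of different number. A replicate block ended 2 of the 141 calls, 1 of them Cox5b in Ins/Del (adjusted p = 0.0104). Depth limits Cox6a2, Cox4i2, Cox7b2 and the 4 untested genes.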
